A study of Homo sapiens with 6 samples.

Results

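The genes described here are 10 early response genes of 3 families, IER2, IER3, IER5 and IER5L, KLF2, KLF4, KLF6 and KLF10, and BTG1 and BTG2. They were taken by gene symbol, and all 10 were found among the 60856 features of the deposited tables. The families were chosen by the differences in counts between BPAF and DMSO already seen in these libraries, IER2 being among the larger falls. Every difference between the groups below is therefore a description, and an adjusted p says only where a gene stands in the fit over all genes.

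The cells were Jurkat cells, an established human T lymphocyte line from a leukemia, labelled as wild type. In 3 libraries they had received 1 µM BPAF (bisphenol AF, which carries fluorine atoms that bisphenol A lacks), and in the other 3 they had received 0.1% dimethyl sulfoxide (DMSO) alone, and the design text calls the 3 of a group biological replicates. The treatment labels give 12 h of exposure, whereas the treatment protocol gives 24 h. The series title places the question in estrogen signalling and inflammation. Polyadenylated RNA was captured on oligo(dT) beads for stranded paired-end libraries. Library totals were 20253656 to 22617613 counts in BPAF and 20745097 to 22117976 in DMSO. The 12 T-cell markers summed to 3289 to 3439 CPM in BPAF and 3434 to 3478 CPM in DMSO, and 0 of them were called. Among other lineages, MS4A1 and PAX5 of B cells had at most 2 counts in any library, and the 8 myeloid markers summed to at most 0.924 CPM. CD79A and BLK of the B-cell list lay between 11 and 15.1 CPM in every library, and HBA1 of the erythroid list between 8.56 and 11.3 CPM. Of the B-cell, erythroid, fibroblast and epithelial markers that could be tested, 0 were called.

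Early response genes are transcribed within minutes of a growth factor, receptor or stress signal, without new protein synthesis, and many of their transcripts are short-lived. The IER genes encode small regulators of transcription, survival and phosphatase action. The KLF genes encode Kruppel-like factors, zinc finger proteins that bind GC-rich DNA and set programmes of growth arrest, migration and quiescence, and the BTG genes encode adaptors that bring the CCR4-NOT deadenylase to messenger RNA and restrain proliferation.

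The regions upstream of 4 of these genes are shown. In IER2, KLF2 and BTG2 the groups did not overlap, and BTG1 is set beside BTG2 because their estimates lay on opposite sides of 0. They come from RefSeq (GRCh38.p14), in which 8 of the 10 symbols had an entry (not IER3 and KLF10). Each is the 250 bases before the annotated start. Capitals mark the GC boxes and the ETS core of IER2, the MEF2 site of KLF2, the FOXO site and the TATA box of BTG1, and the GC boxes and the CCAAT box of BTG2, on either strand.
IER2, chr19:13150161-13150410, plus strand: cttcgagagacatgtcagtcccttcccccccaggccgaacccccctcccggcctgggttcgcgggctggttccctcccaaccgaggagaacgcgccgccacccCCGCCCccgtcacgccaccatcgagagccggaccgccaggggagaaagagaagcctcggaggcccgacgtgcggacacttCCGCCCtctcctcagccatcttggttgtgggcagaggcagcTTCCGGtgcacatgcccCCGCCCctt
KLF2, chr19:16324576-16324825, plus strand: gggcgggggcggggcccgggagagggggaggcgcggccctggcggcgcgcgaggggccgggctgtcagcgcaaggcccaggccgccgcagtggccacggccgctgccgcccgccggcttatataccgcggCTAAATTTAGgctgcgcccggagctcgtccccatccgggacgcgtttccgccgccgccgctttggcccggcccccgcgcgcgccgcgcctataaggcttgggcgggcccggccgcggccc
BTG1, chr12:92145847-92146096, minus strand: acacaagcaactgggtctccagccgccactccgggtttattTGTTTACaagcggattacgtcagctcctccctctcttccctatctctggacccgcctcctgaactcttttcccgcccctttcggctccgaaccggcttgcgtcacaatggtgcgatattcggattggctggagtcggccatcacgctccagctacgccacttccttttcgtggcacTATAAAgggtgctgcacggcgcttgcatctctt
BTG2, chr1:203305269-203305518, plus strand: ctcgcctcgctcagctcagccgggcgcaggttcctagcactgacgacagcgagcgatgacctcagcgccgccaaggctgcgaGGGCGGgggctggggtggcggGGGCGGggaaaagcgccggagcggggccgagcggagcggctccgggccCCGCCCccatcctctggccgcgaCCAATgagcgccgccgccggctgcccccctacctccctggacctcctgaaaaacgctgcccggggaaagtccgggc

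The 8 upstream regions were searched on both strands for 10 motifs, beside all 35116 promoters of the table cut to the same 250 bases. KLF2 was the 1 member with a MEF2 site, 120 bases upstream of the start, and 0.515% of all promoters held one. MEF2 factors, activated by the kinase ERK5, are known drivers of KLF2. BTG1 was the 1 member with the FOXO site TGTTTAC, 209 bases upstream, a motif found in 2.98% of promoters, and FOXO factors are known activators of BTG1. It was also the 1 member with the TATA box TATAAA, 33 bases upstream, against 10.7% of promoters. The GC box GGGCGG was found in 7 of 8 members and 42.6% of promoters, and CCAAT in 5 of 8 and 32% of promoters. The ETS core CCGGAA was found in IER2, 26 bases upstream on the minus strand, and in IER5, against 14.5% of promoters, and CACGTG (E box) in KLF4 and KLF6, against 6.34%. The CArG box of serum response factor, the CRE (TGACGTCA) and the palindromic estrogen response element were in none of the 8 windows, and in 1.16%, 1.65% and 0.0399% of all promoters. Upstream GC content was 80% in KLF2 and 74.8% in BTG2, above 96.7% and 89.2% of all promoters, and 56.4% in BTG1, where the median of all promoters was 58%. A MEF2 site reads the same on both strands and was counted at 1 position, and the GC boxes did not overlap the CCAAT or ETS letters in the regions printed.

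The 10 genes have few exons. Their exons form 1 to 5 separate blocks in GENCODE release 29, 1 each in IER3, IER5 and IER5L, where the median of tested protein-coding genes was 11 and 2.33% had 1. Their exon length ran from 1356 bases in IER3 to 6139 in KLF6, against a median of 5101. In the 3′ UTR of the longest coding transcript, the pentamer ATTTA, the core of AU-rich decay elements, occurred 6 times in IER3, or 6.64 per kb, more than in 96.3% of 12118 coding genes. IER5 held 10 at 3.32 per kb and KLF2 held 3 at 3.56 per kb. IER2 held 0 in 1050 bases, and the other 6 members held 0.924 to 2.33 per kb, against a median of 1.61.

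Per length, IER2 was by far the most abundant of the 10 transcripts. Its deposited TPM (a transcript abundance scaled for gene length and library total) was 51.9 ± 6.39 in BPAF and 78.3 ± 4.87 in DMSO (SD, n = 3). IER3 followed at 9.93 ± 0.372 TPM in BPAF and 10.9 ± 0.633 in DMSO, then KLF6 at 9.24 ± 0.777 and 8.93 ± 1.35, and BTG1 at 7.27 ± 0.783 and 8.05 ± 0.684. IER5 had 6.35 ± 0.336 TPM in BPAF and 6.30 ± 0.185 in DMSO, and KLF10 had 4.99 ± 0.754 and 5.18 ± 0.729. KLF2 had 3.65 ± 0.919 TPM in BPAF and 2.57 ± 0.881 in DMSO, and BTG2 had 3.22 ± 0.127 and 2.28 ± 0.208. IER5L had 0.640 ± 0.125 TPM in BPAF and 0.813 ± 0.146 in DMSO, and KLF4 was lowest at 0.45 ± 0.131 and 0.453 ± 0.0379. The order of the means was the same in both groups. Neighbours in this order whose libraries overlapped in both groups were IER3 with KLF6 and KLF2 with BTG2. KLF6 with BTG1 overlapped in DMSO, and BTG1 with IER5 and IER5L with KLF4 overlapped in BPAF. Differences between the groups below are on counts, in TMM-scaled CPM, which are counts scaled by library total and composition.

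In the fit of all 6 libraries (edgeR quasi-likelihood test, Benjamini-Hochberg adjustment over 15490 tested genes, threshold 0.05), 1 of the 10 members, IER2, was called, and it was lower in BPAF. Of all tested genes, 3.40% were called lower, 2.65% higher and 6.06% in either direction. These were 411 genes higher and 527 lower, and 461 higher and 400 lower with upper quartile scaling, under which IER2 was also called lower. IER3, IER2 and KLF4 were lower in every BPAF library than in every DMSO library, and KLF2 and BTG2 were higher in every one. Groups did not overlap for 24.8% of all tested genes, 12.8% in the lower direction and 12.0% in the higher. The log2 fold change of BPAF over DMSO was below 0 for 7 members and above 0 for 3, with a median of -0.16, where the median of all tested genes was 0.0019. Nothing is read from these counts, since the families were chosen with this contrast in view. In bulk libraries, fewer cells that make a transcript and less of it per cell cannot be told apart.

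**Figure D1:**
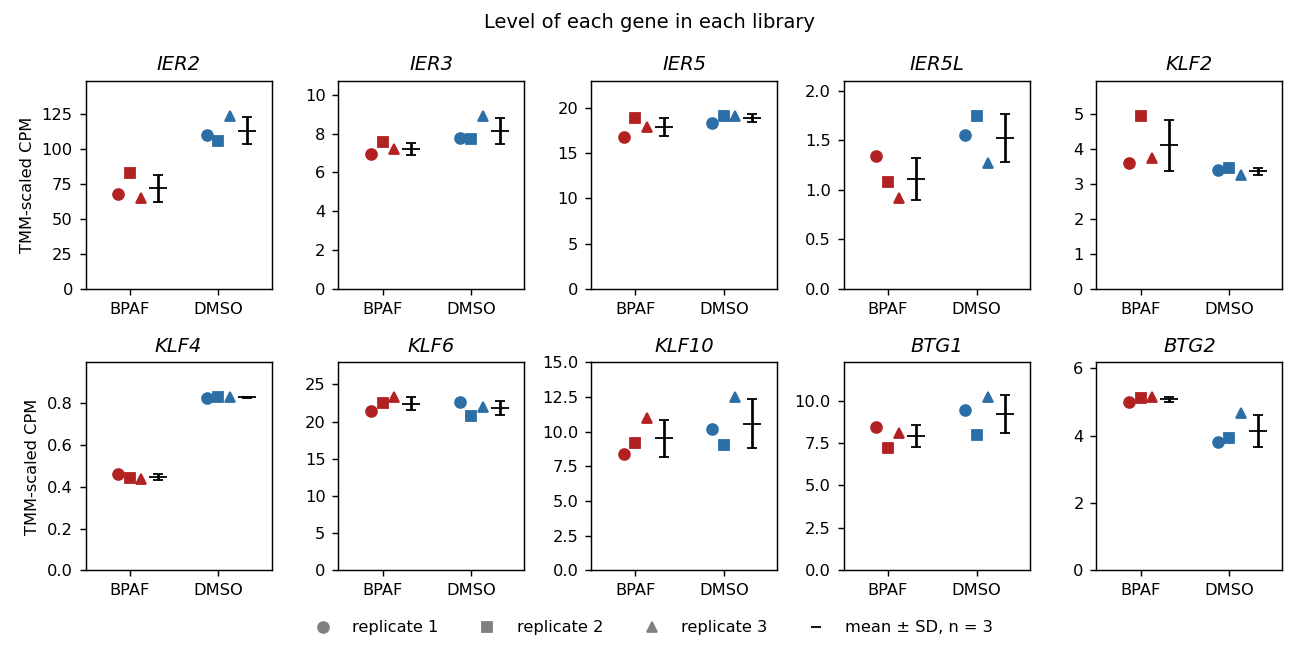
TMM-scaled CPM (vertical axis, from 0) of each of the 10 genes in each BPAF library (red, left) and each DMSO library (blue, right), with the mean and SD of 3 libraries in black. IER2, IER3 and KLF4 lie lower in every BPAF library than in every DMSO library, KLF2 and BTG2 higher, and the groups of the other 5 genes overlap.

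IER2 encodes a small nuclear regulator of transcription that can associate with the phosphatase PP2A and the heat shock factor HSF1. IER2 (ENSG00000160888, GRCh38 chromosome 19, 13150415 to 13154908, plus strand) had 67.8, 82.6 and 64.9 CPM in BPAF replicates 1 to 3, against 109.7, 105.7 and 123.6 CPM in DMSO replicates 1 to 3. The highest BPAF library, replicate 2, lay below the lowest DMSO library, replicate 2. IER2 fell 1.58-fold in BPAF, a log2 fold change of -0.66 ± 0.11 (SE; 95% interval -0.95 to -0.36; edgeR adjusted p = 0.0425). Of all 15490 tested genes, 0.768% had a lower log2 fold change. Among the 2714 tested genes whose average level was that of IER2 or above, 0 others had a lower value, and the next was at -0.43. That cut was set at the level of IER2 itself, and IER2 was among the falls already seen, so its place is only a description. The fall was of similar size in the deposited TPM, at -0.60 on the log2(TPM + 0.1) scale, with no call (limma adjusted p = 0.0945).

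The call of IER2 was close to the threshold, and its libraries varied more than those of most genes. Its biological coefficient of variation was 9.56%, against a median of 4.94% over all tested genes. The robust fit gave it 4.99 degrees of freedom in place of the usual 20.2, a value that only 0.839% of tested genes reached or went below. With 1 library left out, the log2 fold change stayed between -0.77 and -0.59, and the call was kept in 1 of 6 fits, the one without BPAF replicate 2 (edgeR adjusted p = 2.47e-05). It was lost without BPAF replicate 1 (0.139), BPAF replicate 3 (0.0904), DMSO replicate 1 (0.107), DMSO replicate 2 (0.0724) and DMSO replicate 3 (0.0731). All 6 deposited counts of IER2 held decimals. The antisense gene AC011446.2, which overlaps 1123 bases of IER2, had 0 to 4.59 counts per library, 0.101% of the sum of both genes.

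STX10, which encodes a syntaxin of membrane traffic, lies head to head with IER2, with 31 bases between the annotated genes, so the upstream region printed above overlaps the annotated start of STX10. STX10 had 1499.0, 1472.06 and 1594.03 deposited counts in BPAF, against 1537.02, 1390.0 and 1484.03 in DMSO. Its log2 fold change was 0.00 ± 0.04, and edgeR did not call it. The divergent neighbour thus showed no difference beyond its spread where IER2 was lower.

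**Figure D2:**
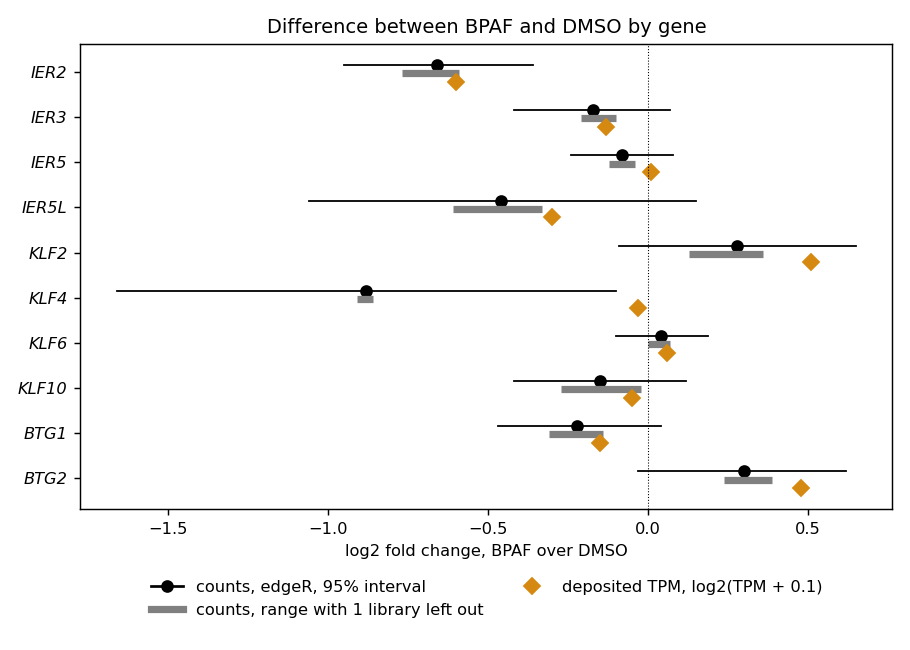
Log2 fold change of BPAF over DMSO (horizontal axis) for each gene from counts with its 95% interval (black), its range with each library left out in turn (grey bars), and the value from log2(TPM + 0.1) (orange diamonds). IER2 lies below 0 in all of these, and KLF4 is at -0.88 by counts and -0.03 by TPM. The median of all tested genes was 0.0019 by counts and 0.0892 by log2(TPM + 0.1).

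The other IER genes did not pass. IER3, a regulator of ERK signalling and cell survival (ENSG00000137331, chromosome 6, 30743199 to 30744554), had 6.94, 7.55 and 7.19 CPM in BPAF, against 7.78, 7.73 and 8.92 CPM in DMSO. Every BPAF library was below every DMSO library, the nearest being 7.55 and 7.73 CPM. The log2 fold change was -0.17 ± 0.12 (95% interval -0.42 to 0.07; edgeR adjusted p = 0.465), and -0.10 without DMSO replicate 3. The antisense gene IER3-AS1 overlaps 394 bases of it and had at most 1.32 counts in any library.

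IER5 recruits PP2A to proteins such as HSF1 (ENSG00000162783, chromosome 1, 181088712 to 181092899). It had 16.8, 18.8 and 17.9 CPM in BPAF, against 18.3, 19.1 and 19.1 CPM in DMSO, and the groups overlapped. Its log2 fold change of -0.08 ± 0.08 had a 95% interval of -0.24 to 0.08, which leaves out a change of the size of that of IER2. The value was -0.04 without BPAF replicate 1 and -0.12 without BPAF replicate 2. On log2(TPM + 0.1) its sign turned, to 0.010, which was below the median of 0.0892 of all tested genes on that scale. IER5L, a paralogue of IER5 (ENSG00000188483, chromosome 9, 129175552 to 129178262), had 1.34, 1.08 and 0.915 CPM in BPAF, against 1.56, 1.75 and 1.27 CPM in DMSO. The groups overlapped, since BPAF replicate 1 was above DMSO replicate 3. At -0.46 ± 0.29 (95% interval -1.06 to 0.15; edgeR adjusted p = 0.42), its interval holds both 0 and the value of IER2. It was -0.30 on log2(TPM + 0.1).

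Counts of IER5L are uncertain. IER5L-AS1 overlaps 1492 of its bases on the other strand and took 25.3% of the counts of both genes. That gene had 16.61, 10.36 and 7.32 deposited counts in BPAF, against 4.11, 13.42 and 5.0 in DMSO, with overlap between the groups. The libraries are stranded, but no source used here gives whether counting used the strand.

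Of the KLF genes, KLF2, which holds T cells in quiescence and directs their traffic (ENSG00000127528, chromosome 19, 16324817 to 16327874), had 3.61, 4.95 and 3.75 CPM in BPAF, against 3.39, 3.45 and 3.26 CPM in DMSO. All 3 BPAF libraries were above the DMSO libraries, and BPAF replicate 2 stood above the other 2 BPAF libraries. The log2 fold change was 0.28 ± 0.18 (95% interval -0.09 to 0.65; edgeR adjusted p = 0.41), and 0.13 without BPAF replicate 2 and 0.51 on log2(TPM + 0.1). KLF2 had 67 to 101 counts per library.

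KLF4, a factor of growth arrest and pluripotency (ENSG00000136826, chromosome 9, 107484852 to 107490482), was close to the limit of detection, with 10, 9 and 10 counts in BPAF, against 18, 17 and 17 in DMSO. In TMM-scaled CPM these were 0.462, 0.441 and 0.436 in BPAF and 0.824, 0.827 and 0.828 in DMSO. The 3 DMSO libraries were nearly the same and the groups stood apart. The log2 fold change was -0.88 ± 0.37 (95% interval -1.66 to -0.10), and it was not called (edgeR adjusted p = 0.186). KLF4 passed the filter on low counts through the DMSO libraries alone, since 0 of the 3 BPAF libraries reached the 0.473 CPM that the filter asks for, so a gene at its level in BPAF could be tested only if it was higher in DMSO.

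KLF6, a tumour suppressor induced by injury (ENSG00000067082, chromosome 10, 3775996 to 3785281), had 21.5, 22.5 and 23.3 CPM in BPAF, against 22.6, 20.8 and 22.0 CPM in DMSO. Its groups overlapped, and its log2 fold change of 0.04 ± 0.07 had an interval of -0.10 to 0.19. KLF10, first described as a gene induced early by TGF-beta (ENSG00000155090, chromosome 8, 102648779 to 102655902), had 8.37, 9.22 and 11 CPM in BPAF, against 10.2, 9.04 and 12.5 CPM in DMSO. Replicate 3 was the highest library in each group, the groups overlapped, and the log2 fold change was -0.15 ± 0.13 (95% interval -0.42 to 0.12). With 1 library left out it was -0.07 without BPAF replicate 1, -0.27 without BPAF replicate 3, -0.25 without DMSO replicate 2 and -0.020 without DMSO replicate 3, and it was -0.05 on log2(TPM + 0.1).

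The BTG genes had estimates on opposite sides of 0. BTG1 (ENSG00000133639, chromosome 12, 92140278 to 92145897) had 8.46, 7.21 and 8.06 CPM in BPAF, against 9.42, 7.97 and 10.2 CPM in DMSO. BPAF replicates 1 and 3 lay above DMSO replicate 2, so the groups overlapped. Its log2 fold change was -0.22 ± 0.12 (95% interval -0.47 to 0.04; edgeR adjusted p = 0.337), and -0.14 without DMSO replicate 3. BTG1-DT, which overlaps 325 bases of BTG1 on the other strand, had 11.16, 2.8 and 6.36 counts in BPAF, against 0.0, 2.53 and 1.0 in DMSO, 2.13% of the counts of both genes.

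BTG2, an antiproliferative adaptor like BTG1 (ENSG00000159388, chromosome 1, 203305491 to 203309602), had 4.99, 5.10 and 5.14 CPM in BPAF, against 3.80, 3.94 and 4.68 CPM in DMSO. The BPAF libraries lay close together and above all DMSO libraries. The log2 fold change was 0.30 ± 0.15 (95% interval -0.03 to 0.62; edgeR adjusted p = 0.297). It was 0.48 on the log2(TPM + 0.1) scale, also without a call (limma adjusted p = 0.206).

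**Figure D3:**
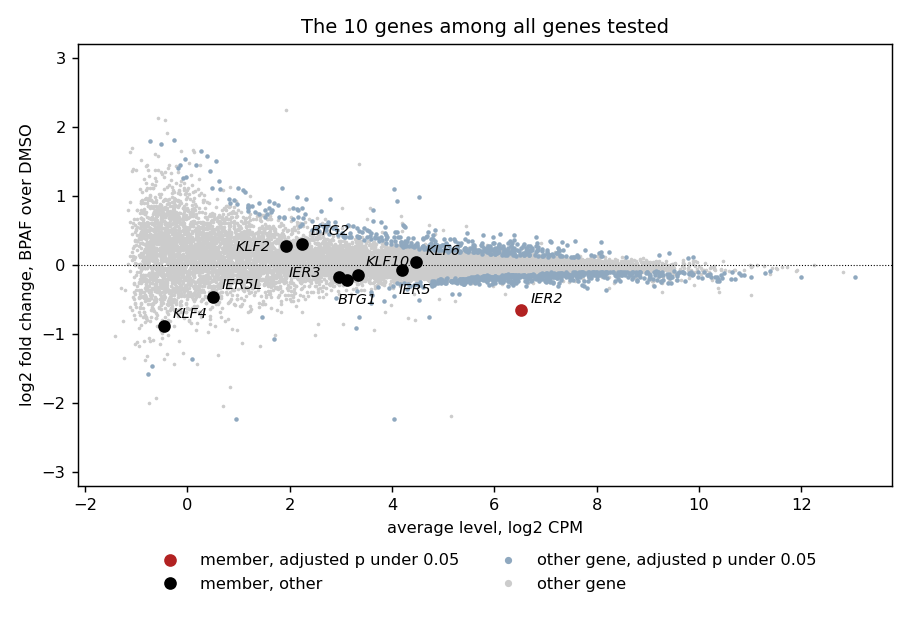
Log2 fold change of BPAF over DMSO (vertical axis) against the average level in log2 CPM (horizontal axis) for all 15490 tested genes, except 1 gene outside the vertical range, with the 10 genes named, IER2 in red as the 1 called and the other 9 in black, and other called genes in blue grey. IER2 lies below the other genes at its level or above, and KLF4 is the lowest of the 10 at the left.

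The ratio of deposited count to deposited TPM varied most among libraries in KLF2 and KLF4. Scaled in each library on 724 genes with 1 annotated transcript, this ratio is the length that the TPM calculation used, if the TPM was made from these same counts. No source used here states that, so the values below describe how the tables differ and may not be lengths of transcripts. For IER5, which has 1 annotated transcript, this implied length was 4224 to 4236 bases in all 6 libraries, and for KLF10 it was 2869 to 2908. For KLF2 it was 1325, 1728 and 2213 bases in BPAF, against 2757, 2039 and 1288 bases in DMSO, a 2.14-fold range that 2.64% of 13867 genes reached. The KLF2 TPM values were accordingly 4.09, 4.26 and 2.59 in BPAF, against 1.75, 2.45 and 3.50 in DMSO, and overlapped, whereas its CPM did not. The TPM of DMSO replicate 1 was the lowest and that of DMSO replicate 3 the highest of its group, although their counts were 74 and 67.

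For KLF4 the implied length was 1781, 1093 and 1851 bases in BPAF, against 2445, 2544 and 2789 bases in DMSO, with no overlap. Its TPM was 0.39, 0.60 and 0.36 in BPAF, against 0.48, 0.47 and 0.41 in DMSO, with BPAF replicate 2 the highest of all 6. The log2 fold change was -0.88 on counts and -0.03 on log2(TPM + 0.1). The lower count of KLF4 in BPAF was thus not seen in its TPM. GENCODE release 29 lists 6 transcripts for KLF4 and 2 for KLF2, and which of them received the reads cannot be read from per-gene tables. For KLF6 it was 3577, 3305 and 4142 bases in BPAF, against 3082, 3542 and 3859 bases in DMSO, a 1.34-fold range that 16.7% of genes reached, and the groups overlapped. For BTG2 the implied length was 2287, 2297 and 2561 bases in BPAF, against 2653, 2414 and 2657 bases in DMSO, and for IER2 it stayed within 2035 to 2095 bases. The median range over all genes was 1.11-fold.

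**Figure D4:**
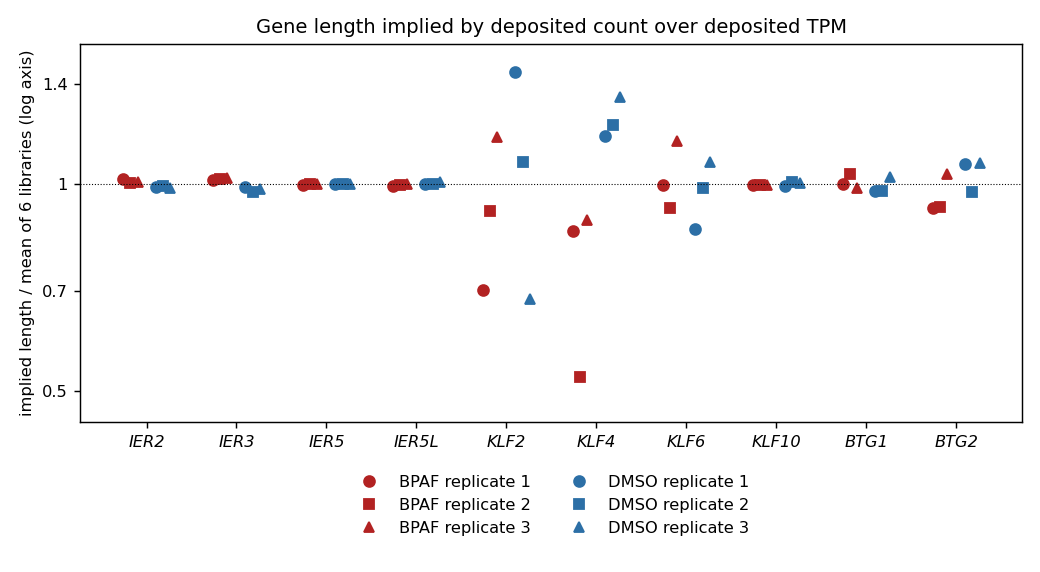
Length implied by deposited count over deposited TPM, divided by each gene's mean over 6 libraries (vertical log axis), for BPAF (red, left) and DMSO (blue, right) libraries. KLF2 spans a 2.14-fold and KLF4 a 2.55-fold range, whereas IER2, IER3, IER5, IER5L, KLF10 and BTG1 stay within 1.06-fold.

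IER2 shared its highest library within each group with several other early response genes. By Pearson correlation of log2 CPM over the 6 libraries, the genes most like IER2 among 9919 searched were AGFG1 (r = 0.996), EGR1 (0.995) and RPL22L1 (0.994), where all points share the difference between the groups. EGR1, an early transcription factor, had 8.56, 20.8 and 9.58 CPM in BPAF, against 53.3, 48.2 and 73.6 CPM in DMSO, a log2 fold change of -2.19 ± 0.40. It did not pass (edgeR adjusted p = 0.0644). AGFG1, a factor of nuclear export, differed by -0.07 ± 0.04 and did not pass either, whereas RPL22L1, which resembles the ribosomal protein gene RPL22, fell by 0.42 on the log2 scale.

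In IER2, EGR1, FOS, JUN, DUSP2 and FOSB, 5 genes chosen beside IER2 after their values were seen, BPAF replicate 2 was the highest of the BPAF libraries and DMSO replicate 3 the highest of the DMSO libraries. FOS, a subunit of AP-1, had 0.416, 1.13 and 0.436 CPM in BPAF, against 2.84, 2.67 and 3.70 CPM in DMSO. Relative to the DMSO mean on the log2 scale, IER2 was at -0.45 in BPAF replicate 2 and at -0.74 and -0.80 in BPAF replicates 1 and 3, whereas EGR1 was at -1.49 in BPAF replicate 2 and at -2.77 and -2.61 in replicates 1 and 3. Of 38 tested genes of a list of other early response genes, 26 (68.4%) were highest in BPAF replicate 2 within their group and 19 (50%) in DMSO replicate 3, against 33.9% and 34.7% of all tested genes. Among the 10 members those counts were 4 and 7. The 38 genes include EGR1, FOS, JUN, DUSP2 and FOSB, so the genes chosen after their values were seen are counted again. That list was also drawn up with earlier results of these data known, and nothing is read from these shares. The part of BPAF replicate 2 and DMSO replicate 3 in the spread of IER2 was not tested.

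**Figure D5:**
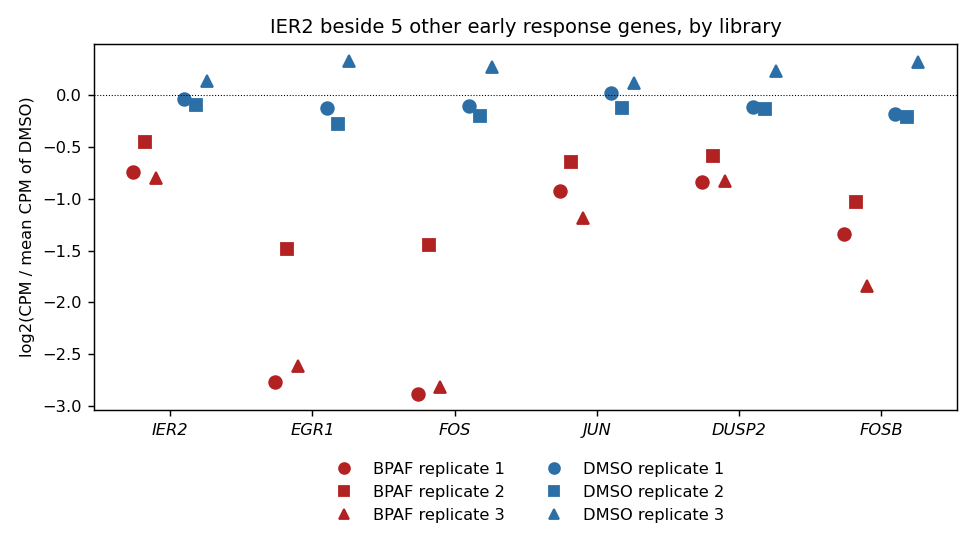
Log2 of CPM over the mean CPM of the 3 DMSO libraries (vertical axis) for IER2 and 5 other early response genes, with BPAF libraries in red on the left and DMSO libraries in blue on the right of each gene. In each gene BPAF replicate 2 (red square) is the highest BPAF library and DMSO replicate 3 (blue triangle) the highest DMSO library.

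In that list of 38 other early response genes, 7 were called lower and 1 higher in BPAF, where 3.40% and 2.65% of all tested genes were called. The median of all 38 log2 fold changes was -0.08, with 24 of them below 0, against a median of 0.0019 over all tested genes. The falls were those of FOS (-2.23 ± 0.32), FOSB (-1.36 ± 0.35) and JUN (-0.91 ± 0.13) of AP-1, EGR3 (-1.47 ± 0.43), the phosphatase gene DUSP2 (-0.75 ± 0.11), PPP1R15A (-0.31 ± 0.07), which restores translation after stress, and the survival gene MCL1 (-0.20 ± 0.03). MCL1 was at 167.2 ± 3.17 CPM in BPAF and 192.0 ± 7.14 CPM in DMSO (SD, n = 3). EGR3 had 0.324, 0.196 and 0.305 CPM in BPAF, against 0.824, 0.778 and 0.731 CPM in DMSO. All its BPAF libraries lay under the 0.473 CPM of the filter. Like KLF4, EGR3 could thus be tested only if it was higher in DMSO, which fixed its direction. FOS lay under that level in BPAF replicates 1 and 3, and FOSB in BPAF replicate 3. The rise was that of ID1, an inhibitor of basic helix-loop-helix factors, from the same list, with 20.2 ± 2.23 CPM in BPAF and 15.2 ± 1.71 CPM in DMSO (0.41 ± 0.10, edgeR adjusted p = 0.0154). The list was drawn up with earlier results of these data known.

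The remaining genes of the 3 families gave 0 calls. Of 14 other KLF genes, 10 were tested, and KLF14, KLF17 and KLF18 had 0 counts in every library. Their log2 fold changes ran from -0.15 to 0.41 with a median of -0.04. The smallest unadjusted p was that of KLF16 (28.0 ± 3.16 CPM in BPAF and 25.4 ± 0.739 CPM in DMSO), and KLF13, abundant in T cells, was at 126.7 ± 3.75 and 130.2 ± 3.52 CPM. Of the 9 SP genes, which share the zinc finger type of the KLF family, 5 were tested. SP3 was lower in every BPAF library (-0.08 ± 0.03, edgeR adjusted p = 0.17). BTG3, TOB1 and TOB2, the other tested members of the BTG and TOB family, had log2 fold changes of -0.03 to 0.00, and the interval of TOB2 was -0.14 to 0.08.

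The partners of these proteins also gave 0 calls with edgeR. Among 16 genes of deadenylation, the machinery to which BTG proteins bind, 2 had an unadjusted p under 0.05, CNOT7, a catalytic subunit (-0.08 ± 0.03), and PRMT1, a methyltransferase that binds BTG proteins (-0.08 ± 0.03), and neither passed (edgeR adjusted p = 0.174 and 0.148). In the 16 genes that bind or destroy short-lived messages, 3 had an unadjusted p under 0.05. TIA1 was closest (-0.09 ± 0.03, edgeR adjusted p = 0.0907), and ZFP36, which promotes decay through AU-rich elements, was at 9.05 ± 0.103 CPM in BPAF and 10.6 ± 1.17 CPM in DMSO (-0.23 ± 0.11). ZFP36L2 went the other way, at 89.5 ± 6.95 CPM in BPAF and 83.3 ± 1.65 CPM in DMSO (0.10 ± 0.05, edgeR adjusted p = 0.242), and its groups overlapped. HSF1 was at 139.7 ± 8.60 CPM in BPAF and 130.1 ± 4.86 CPM in DMSO (0.10 ± 0.04, edgeR adjusted p = 0.186), the 1 of 7 tested HSF1 and PP2A genes with an unadjusted p under 0.05.

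Among inducers of the 10 genes, 0 of 6 serum response factor genes, 0 of 7 ERK5 and MEF2 genes, 0 of 4 FOXO genes and 0 of 10 TGF-beta genes were called. Unadjusted p-values were under 0.05 for 0, 0, 1 and 0 of them. The 1 was FOXO1, at 0.971, 1.27 and 0.610 CPM in BPAF, against 1.74, 1.95 and 1.07 CPM in DMSO, which overlapped (-0.74 ± 0.33, edgeR adjusted p = 0.21). Of 6 genes linked to KLF2 in T cells, 0 were called. S1PR1, the receptor for lymphocyte egress, was at 6.88 ± 0.136 CPM in BPAF and 6.22 ± 0.480 CPM in DMSO (0.15 ± 0.13), and CXCR4 was lower in every BPAF library (-0.08 ± 0.03, edgeR adjusted p = 0.168).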

How the data were processed

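Messenger RNA of Jurkat cells was measured in 3 BPAF and 3 DMSO libraries. Per the submitters' processing notes, FastQC, cutadapt, HISAT2 and featureCounts were used with GRCh38 (hg38). Versions, the annotation and how decimals arose are not stated there. The deposited table of estimated counts per gene was rounded to whole numbers, and the 192 features without an Ensembl identifier, 0.258% of BPAF and 0.248% of DMSO counts, stayed in the fit. The deposited TPM table holds the authors' values scaled for gene length and library. Symbols were found for 42028 identifiers, and coordinates come from GENCODE release 29.

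After filterByExpr and TMM scaling, edgeR 4.0.16 in R 4.3.3 gave the tests (quasi-likelihood, robust, no covariate, Benjamini-Hochberg over 15490 genes). SE is the log2 fold change over the square root of F, and 95% intervals use the fitted degrees of freedom. The test was checked on simulated counts with known changes. DESeq2 1.42.0 and limma 3.58.1 served as alternatives, as did other scalings and filters, a replicate block, and fits leaving out each library. Every pair of libraries differed by more than sampling noise (chi-square over its degrees of freedom 2.39 to 7.70). The members and lists were chosen with earlier results of these data known. Named from each list are the genes called or, if none was, some of the up to 4 with the smallest p, and for IER2 the 3 genes with the highest correlation (average log2 CPM of at least 3). The 5 genes plotted beside IER2 by library were chosen after their values were seen. Some genes of the lists are not reported here. Medians, correlations and motif counts were computed in Python 3.11.15.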

Additional observations from a re-analysis of the deposited data

How the results depend on the processing

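Over 17 alternatives, 9 of the 10 genes kept the sign of their log2 fold change, and 9, all but IER2, were called in 0 of them. IER5 changed sign with the deposited TPM, at 0.010 with a pseudocount of 0.1 and 0.009 with a pseudocount of 1. KLF4 moved from -0.88 to -0.03 and -0.007 with those. The median of all tested genes was 0.0892 and 0.0775 with the same pseudocounts, against 0.0019 on counts, so IER5 stayed below the median on each scale. The number of the 10 genes called, 1, was 0 on TPM with either pseudocount, 0 with the replicate number as a block, and 0 to 1 with each library left out. Apart from the fits with a library left out, IER2 was called in 8 of 11 alternatives, with adjusted p from 6.68e-05 (DESeq2) to 0.0447 (upper quartile scaling). It was 0.000815 without robust estimation, 0.16 with the block, and 0.0945 and 0.0921 on TPM. The causes were not tested.

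Of all genes, 938 were called. That number was 826 with the replicate block, 2 and 1 on TPM with a pseudocount of 0.1 and 1 (2666 and 2699 at an unadjusted p under 0.05), and 322 to 861 with each library left out, the lowest being without BPAF replicate 1, followed by BPAF replicate 3 at 392 and DMSO replicate 1 at 482. The labels do not say whether libraries of the same number were paired. Over all tested genes, their deviations from the group means correlated by -0.043 to 0.014, and those of different numbers by -0.039 to 0.036. A correlation over all genes cannot exclude an effect shared by a smaller set of them, so pairing remains unknown. At 9 to 18 counts per library, KLF4 limits what this depth can show.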
